A study of Mus musculus with 16 samples.

Results

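The change in gene expression of the mouse brain between 13 and 26 months of age on a control diet was measured in 8 of the 16 RNA-seq libraries of the series. Libraries A, B, C and E, labelled 13 months and control diet, were compared with libraries K, L, M and N, labelled 26 months and control diet, 4 against 4, over all 17762 genes with enough counts to be tested. All mice of the series were allocated to their diet at 12 months, so the younger control group had been on its diet for 1 month and the older for 14 months. The other 8 libraries came from mice of the same ages on a ketogenic diet, 4 at each age. The labels used here give the tissue as brain, and they give no strain, sex, genotype, composition of the control diet or hour of collection. They do not say that each library came from a separate mouse, so the p-values cover the spread among libraries only, part of which may be technical.

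With age, the glial cells of the mouse brain take on features of an immune response. Microglia, the resident macrophages, sense debris through receptors such as TREM2 and Toll-like receptors, digest it in lysosomes and make the complement protein C1q. Astrocytes build up the filament protein GFAP, and cells that sense interferon switch on genes through the factor ISGF3, which includes STAT2 and IRF9 and binds a promoter element called ISRE.

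The tissue label was checked against marker genes. Neuronal Snap25 had 10856 to 23177 counts in each of the 8 libraries, Slc1a2, the glutamate transporter of astrocytes, 21003 to 44407, and Cx3cr1, the fractalkine receptor of microglia, 182 to 430, while the pituitary hormone gene Prl had 0 to 4. Each library held 10348163 to 15642116 counts, and total counts did not separate the ages (exact two-sided permutation p = 0.229). Library C at 13 months and library K at 26 months had 0.0372% and 0.118% of their counts on 18S ribosomal RNA, against 2.56 to 8.71% in the other 6, and the first principal component of the 8 libraries, with 49.4% of the variance, set C and K apart. These 2 are called low 18S libraries. Because each age holds 1 of them, the results below come from a fit without a term for low 18S libraries, and calls added by that term are given beside them.

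At 26 months 33 genes were higher and 4 lower than at 13 months, 37 or 0.208% of the 17762 tested (0.186% higher and 0.0225% lower; edgeR's quasi-likelihood test, Benjamini-Hochberg adjusted p under 0.05). Their fold changes upwards ran from 1.30, for Ptprb, a phosphatase of blood vessel endothelium, to 6.01, for Clec7a, a receptor of activated microglia. In all 37 the 4 older libraries lay wholly above or wholly below the 4 younger ones, which was so for 543 genes, 3.06% of those tested (331 above, 1.86%, and 212 below, 1.19%). The median log2 change over all tested genes was 0.00. With the term for low 18S libraries, 143 genes were called, 0.805% of those tested (105 higher, 0.591%, and 38 lower, 0.214%). They included all 37, whose log2 changes moved by at most 0.0407.

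**Figure D1:**
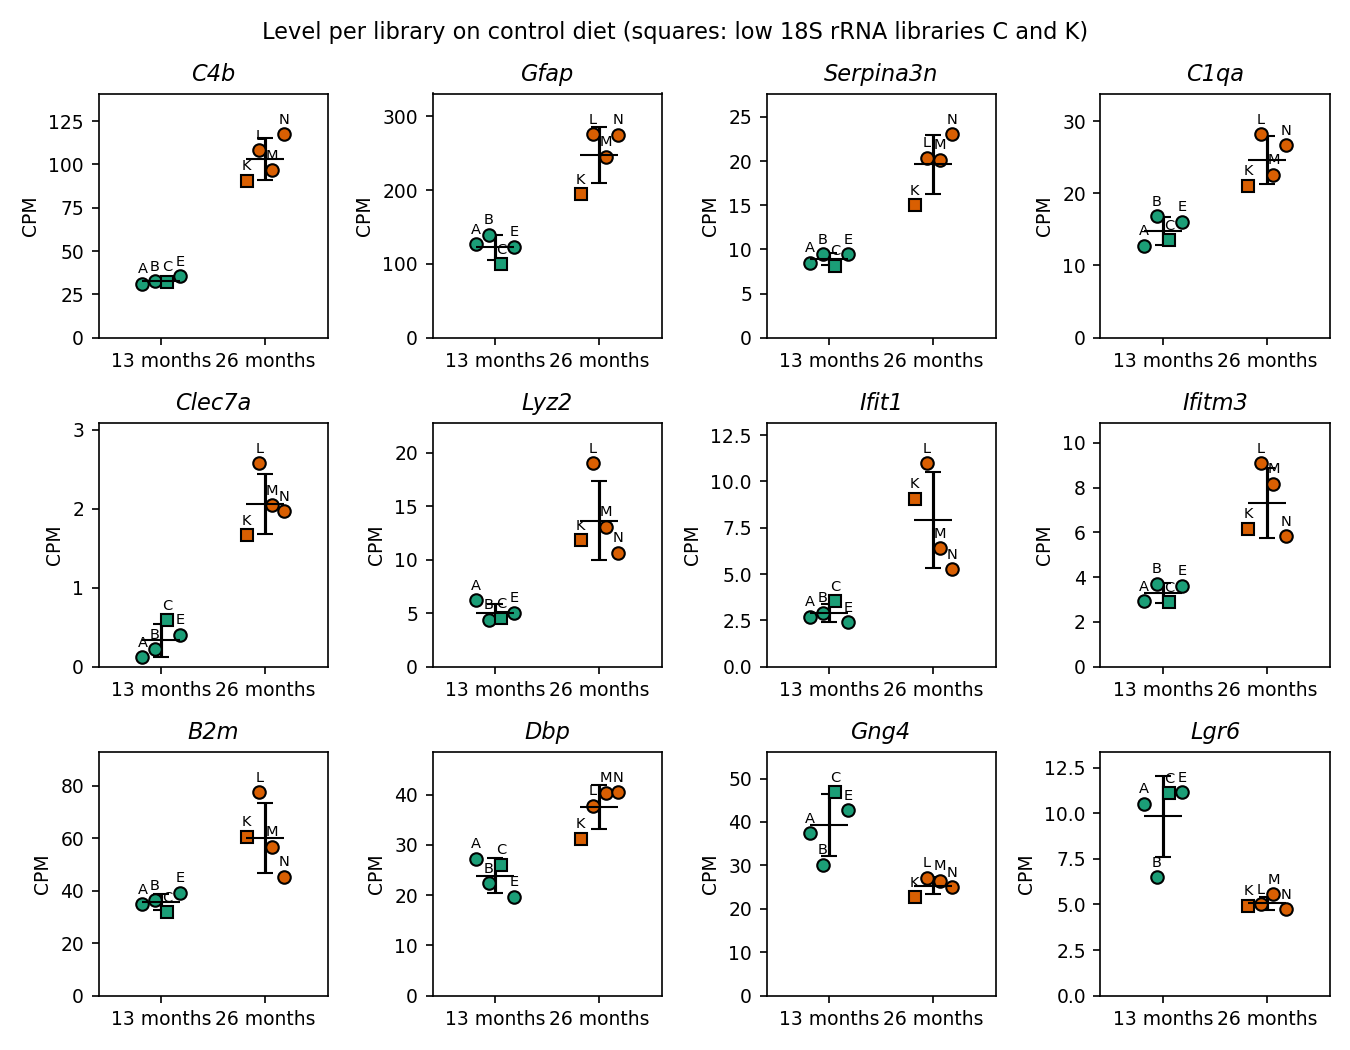
Levels of 12 genes in each control-diet library, as CPM (read counts scaled to library size, vertical axis from 0) at 13 and 26 months. Points are libraries with their letters, squares mark the low 18S libraries C and K, and the horizontal line and bar are the mean ± SD of 4 libraries; in each panel the 2 ages do not overlap, and Gng4 and Lgr6 are the 2 genes shown that were lower at 26 months.

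**Figure D2:**
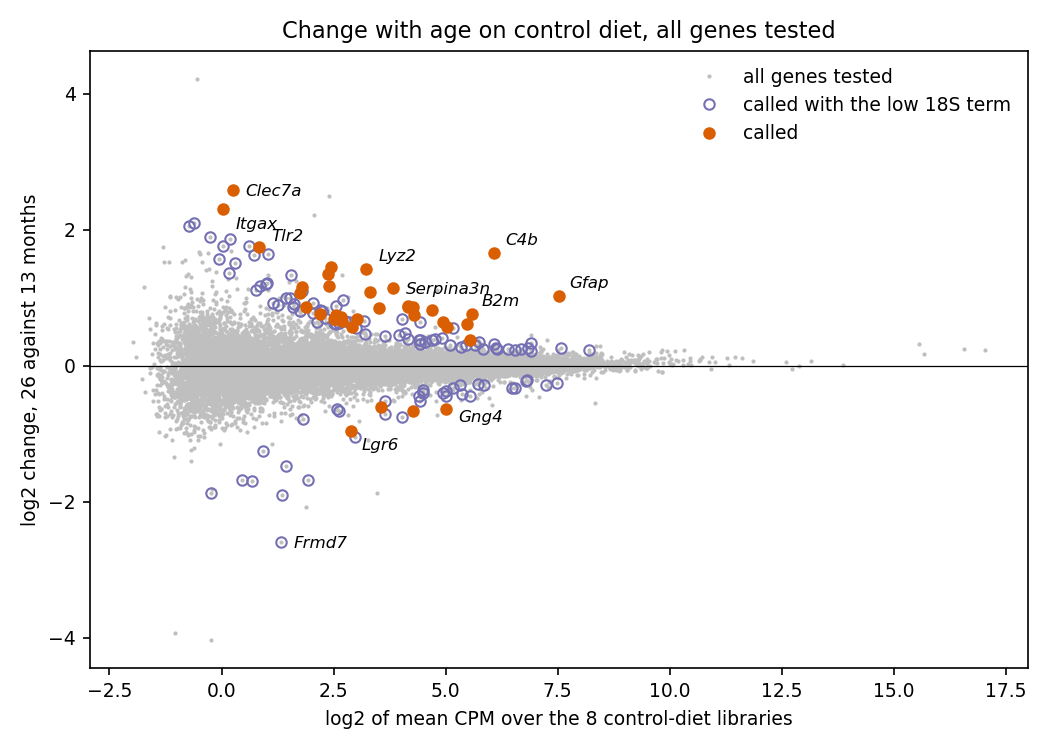
Log2 change from 13 to 26 months on control diet (vertical) against the log2 of the mean CPM over the 8 libraries (horizontal), 1 grey point for each of the 17762 genes. Filled points are the 37 called genes and open circles the genes called when a term for low 18S libraries is fitted; 33 of the filled points lie above 0 and 4 below.

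Of 55 tested genes of the interferon response, 7 rose at 26 months and 0 fell, 21 rose and 0 fell with the low 18S term, and 53 had a positive change. Over all genes tested, 0.186% rose and 0.0225% fell, or 0.591% and 0.214% with the term. These shares apply beside each list below. Sorted by role, 0 of the 4 tested ligand and receptor genes were called in either fit. Without the term 1 of 10 signalling and transcription factor genes and 1 of 9 sensors of foreign or misplaced nucleic acid were called. So were 5 of 32 effectors. With the term these counts were 2, 3 and 16. From ligands and receptors to effectors, the median log2 change was −0.00, 0.37, 0.44 and 0.80, against 0.00 over all genes. The summed level of the effectors was 115.5 to 136.6 CPM in the 4 younger and 177 to 240 CPM in the 4 older libraries, so these ranges did not overlap. In 20 of the 32 effectors all 4 older libraries lay above the younger ones, against 1.86% of all genes tested.

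Many genes of this response carry the ISRE in the promoter, and the stretches that hold its core in promoters of called members are shown here. The core was searched as GAAANNGAA on both strands, where it reads TTCNNTTTC on the other strand. The sequences are from RefSeq, build GRCm38.p6 (mm10), each written 5′ to 3′ along the strand of its gene, with the matches in capitals.
Ifit1, chr19:34640760-34640833, plus strand: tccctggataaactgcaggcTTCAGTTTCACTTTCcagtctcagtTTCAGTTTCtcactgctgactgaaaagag
Ifit3, chr19:34583354-34583455, plus strand: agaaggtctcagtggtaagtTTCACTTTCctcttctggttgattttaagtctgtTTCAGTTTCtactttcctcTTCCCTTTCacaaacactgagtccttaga
Gbp3, chr3:142559980-142560034, plus strand: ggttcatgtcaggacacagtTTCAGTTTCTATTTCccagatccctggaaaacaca
B2m, chr2:122147528-122147576, plus strand: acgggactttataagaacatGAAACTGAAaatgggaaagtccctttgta
Ifitm3, chr7:141010697-141010762, minus strand: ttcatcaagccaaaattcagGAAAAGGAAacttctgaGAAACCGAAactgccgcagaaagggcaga
Ddx58, chr4:40239794-40239842, minus strand: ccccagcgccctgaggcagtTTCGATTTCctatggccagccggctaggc
The Ifit1 stretch holds 3 matches, of which the first 2 overlap, and the Ifit3 stretch holds 3 that do not overlap. Those of Ifit1, Ifit3, Gbp3 and B2m lie upstream of the annotated start, and those of Ifitm3 and Ddx58 just downstream of it. B2m is listed below with the antigen-presenting genes. Of the 21 interferon genes called with the low 18S term, 14 matched the promoter table, and 11 of their 16 promoters (68.8%) held the core, as did 44.9% of the 49 promoters of all tested interferon genes, 7.11% of the 14948 promoters of tested genes and 8.56% of all 32851 promoters. Among all 33 genes called higher, 28.1% of 32 promoters held it. No match to this core was found in the promoter windows of Irf9, Lgals3bp, Tap1, Psmb8 and Rnf213, or in 1 of the 2 windows of Gbp3. A match is a description of letters and does not show that a factor binds there.

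Ifit1, which binds foreign RNA and blocks its translation (chr19:34640871-34650009), was at 2.69, 2.92, 3.53 and 2.41 CPM in A, B, C and E and at 9.07, 11, 6.38 and 5.25 CPM in K, L, M and N. All older libraries were above the younger ones, and K and L were the highest. Ifit1 rose 2.73-fold, a log2 change of 1.45 ± 0.27 (SE, adjusted p = 0.0348). Ifit3, its partner protein (chr19:34583531-34588731), was at 4.91, 5.05, 9.15 and 6.23 CPM against 15.7, 15.4, 10.6 and 12.5 CPM and rose by 1.09 ± 0.19 on the log2 scale (SE, adjusted p = 0.0201). Ifitm3, a membrane protein that hinders virus entry (chr7:141009586-141010770), was at 2.93, 3.70, 2.88 and 3.62 CPM against 6.17, 9.09, 8.18 and 5.82 CPM. It rose 2.25-fold, with groups that did not overlap (log2 1.17 ± 0.21 SE, adjusted p = 0.0188). Gbp3, a guanylate-binding protein of the cell's defence against microbes, rose 2.54-fold, from 2.48 to 3.92 CPM at 13 months to 4.76 to 10.2 CPM at 26 months (adjusted p = 0.0188). Lgals3bp, a secreted protein that binds galectins, rose 1.84-fold, from 9.48 to 14.9 CPM to 21.4 to 25.6 CPM (adjusted p = 0.0115).

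Irf9, the DNA-binding subunit of ISGF3, was at 6.22, 5.61, 7.38 and 5.53 CPM in the younger libraries and at 12.7, 9.47, 8.84 and 9.18 CPM in the older ones. K stood above the rest of its group. The rise was 1.62-fold (log2 0.69 ± 0.14 SE, adjusted p = 0.0404). Stat2, which also belongs to ISGF3, did not pass, with a log2 change of 0.04 ± 0.17 (SE), and its groups overlapped between ages. Neither did Irf7, a factor that amplifies the response (0.81 ± 0.33 SE, adjusted p = 0.792), or Isg15, a ubiquitin-like effector (0.64 ± 0.47 SE, adjusted p = 1 when rounded). Leaving out 1 library moved the change of Irf7 from 0.44 (without L) to 1.08 (without C) and that of Isg15 from 0.18 (without L) to 0.99 (without C). Stat2, Irf7 and Isg15 were chosen for naming after their values were seen. Ddx58, which encodes the RNA sensor RIG-I, rose 1.58-fold from 4.25 to 5.69 CPM to 6.89 to 9.02 CPM (adjusted p = 0.0424). The RNA sensor Ifih1, also known as MDA5, passed with the low 18S term only (log2 0.64, adjusted p = 0.0203). So did Usp18, which restrains interferon receptor signalling (1.78, adjusted p = 0.012), Bst2, a protein that tethers budding virus (1.25, adjusted p = 0.00815), Oas2, a sensor enzyme that makes 2-5A (1.56, adjusted p = 0.00816), and Parp14, an ADP-ribosyltransferase (0.99, adjusted p = 0.000975). Ifnb1 had 0 counts in all 8 libraries and Ifng at most 2, and the receptor gene Ifnar1 changed by −0.02 ± 0.07 on the log2 scale (SE, not called).

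Each of these interferon calls was lost when some single library was left out. Without the older library L, which was the highest for Ifit1, Ifitm3 and Gbp3, the adjusted p rose to 0.0743 for Lgals3bp, 0.113 for Ifit3, 0.117 for Gbp3 and Ifitm3, 0.162 for Ifit1 and 0.253 for Ddx58. Other libraries whose removal ended a call were A, C and M for Ifitm3, A, B and C for Gbp3, A, B and E for Ifit3, A, B, C, E, K and M for Ifit1, every other library for Ddx58, and A, B, E, K, L, M and N for Irf9 (largest adjusted p 0.161, without E). With the low 18S term, Lgals3bp, Ifitm3, Gbp3, Ifit3, Ddx58 and Parp14 stayed called whichever of the 8 libraries was left out, while Irf9 was lost without K, Ifit1 without A, B, C, E, K or L, Bst2 without A or K, Oas2 without C or K, Usp18 without A, E, K or L and Ifih1 without A, B, K, L or M. When only the 8 control-diet libraries were fitted, Gbp3, Ifit3, Ddx58 and Irf9 were not called (adjusted p = 0.0983, 0.131, 0.193 and 0.193), and with libraries G and P of the ketogenic diet left out, an alternative added after the data had been seen, Ifit1, Ddx58 and Irf9 were not (0.0771 for each).

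Genes of MHC class I, the complex that shows samples of a cell's proteins to T cells, were called among the chains and the peptide pump. All 9 tested class I chain genes had a positive change (median log2 0.76). Of the 9, 2 were called higher and 6 with the low 18S term, against 0.186% and 0.591% of all genes tested. In 7 the older libraries all lay above the younger, against 1.86% of all genes tested. The summed level of the 9 was 98.1 to 105 CPM at 13 months and 135 to 204 CPM at 26 months, again without overlap. B2m, the invariant light chain (chr2:122147686-122153083), was at 34.9, 36.3, 31.8 and 39.2 CPM in A, B, C and E and at 60.6, 77.6, 56.9 and 45.4 CPM in K, L, M and N. L was the highest of the older libraries and N the lowest. B2m rose 1.70-fold (log2 0.76 ± 0.12 SE, adjusted p = 0.0115). H2-K1, a classical heavy chain, rose 1.82-fold from 11.5 to 14.8 CPM to 20.6 to 33.9 CPM (adjusted p = 0.0366). Tap1, a subunit of the pump that carries peptides into the endoplasmic reticulum, rose 2.24-fold from 1.35 to 2.68 CPM to 4.25 to 5.58 CPM (adjusted p = 0.0404). It was the only gene called among 13 of peptide loading, whose median log2 change was 0.26. With the term, Psmb8, a catalytic subunit of the immunoproteasome, was called as well (1.10, adjusted p = 0.0198), as were the heavy chains H2-D1, H2-Q4, H2-Q6 and H2-Q7. None of the 7 tested MHC class II genes was called in either fit. Their median log2 change was 0.36 (0.24 without C and 0.19 without L), and Cd74, the class II invariant chain, changed by 0.50 ± 0.27 (SE, adjusted p = 1 when rounded). B2m lost its call without A or C (adjusted p up to 0.0595), H2-K1 without A, B, C, E, L or M (up to 0.174) and Tap1 without any 1 of the 8 (up to 0.144). With the term Tap1 stayed called in every such fit, while B2m was lost without A, C or K, H2-K1 without A, B, E or K, H2-Q4 without A or L, H2-Q7 without E, K or L, H2-Q6 without A, B, E, K or L, H2-D1 without A, B, E, K, L or M and Psmb8 without A, B, E, L or N. B2m, H2-K1 and Tap1 were not called from the 8 control-diet libraries alone (adjusted p = 0.131, 0.106 and 0.0983), nor H2-K1 and Tap1 with G and P left out (0.072 and 0.0773). The class I genes are similar to each other, so counts may hold reads of neighbouring copies.

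The complement calls lay in the first steps of the classical pathway and 1 receptor gene, Itgax, described below. Of 8 tested genes of C1 and the classical pathway, 3 were called higher and 4 with the low 18S term, with a median log2 change of 0.48, and their summed level went from 75.4 to 85.0 CPM at 13 months to 159 to 198 CPM at 26 months. C4b, the fourth component (chr17:34728380-34743882), was at 31.1, 32.5, 32.4 and 35.6 CPM in the younger libraries and at 90.7, 108, 96.7 and 118 CPM in the older. Every older library was far above every younger one. C4b had the smallest adjusted p of all genes (log2 1.65 ± 0.12 SE, adjusted p = 1.73e-06), and its call held whichever library was left out (largest adjusted p 5.60e-05, without C). Its near-identical copy C4a had 9 to 21 counts per library. C1qa, 1 of the 3 chains of C1q, the molecule that starts the pathway (chr4:136895917-136898803), was at 12.7, 16.8, 13.5 and 16.1 CPM against 21.0, 28.2, 22.6 and 26.6 CPM and rose by 0.75 ± 0.13 (log2, SE, adjusted p = 0.0187). C1qc, the C chain, rose by 0.86 ± 0.16 (adjusted p = 0.0251), and C1qb, the B chain, by 0.65 ± 0.09 with the term (adjusted p = 1.56e-05; 0.051 without it). C1qa lost its call without A, C, L or N (adjusted p up to 0.113) and C1qc without C, E, L, M or N (up to 0.133), but with the term all 3 chains stayed called without any 1 library. C1qc was not called with G and P left out (adjusted p = 0.072) or from the 8 control-diet libraries alone (0.0501). None of 8 tested inhibitors of complement was called (median log2 0.11), and all 8 changes were positive.

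C3, the component on which the complement pathways meet, had 21, 8, 19 and 26 counts in A, B, C and E and 118, 104, 72 and 80 in K, L, M and N. The older libraries all lay above the younger ones, at 5.89 to 7.88 CPM against 0.897 to 2.61 CPM, a 4.66-fold difference. Even so C3 did not pass in the fit of all 16 libraries (log2 2.22 ± 0.79 SE, adjusted p = 0.66). In the 13-month ketogenic group, library G held 225 counts of C3 against 21 to 24 in F, H and J. Library G also held 1912 counts of the liver gene Alb, against at most 12 in F, H and J, and library P, from 26 months on the ketogenic diet, had 161 counts of the neutrophil gene S100a9, against 11 to 18 in O, Q and R. With G and P left out C3 was called (log2 2.21, adjusted p = 0.000486), as it was when only the 8 control-diet libraries were fitted (adjusted p = 0.00867). G and P were left out together, after the data had been seen, and the cause of the difference between these fits was not tested. C3ar1, the receptor for the C3a fragment, passed with the low 18S term only (log2 0.90, adjusted p = 0.0285), and lost that call without A, C, E, K, L or M.

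Of 16 tested receptors and surface proteins of activated microglia, 6 rose, and 9 with the low 18S term. All 16 had a positive change, with a median log2 of 0.82. Clec7a, a receptor for fungal glucan that marks activated microglia (chr6:129461591-129472779), was at 0.12, 0.224, 0.588 and 0.402 CPM in A, B, C and E and at 1.67, 2.58, 2.05 and 1.97 CPM in K, L, M and N. It was low in the younger brain in absolute counts, and the older libraries were all above (6.01-fold, log2 2.59 ± 0.44 SE, adjusted p = 0.0146). Itgax, the integrin chain also called CD11c, rose 4.96-fold from 0.101 to 0.588 CPM to 1.05 to 2.95 CPM (adjusted p = 0.0404). Tlr2, which senses bacterial lipoproteins, rose 3.34-fold from 0.302 to 1.14 CPM to 1.97 to 3.56 CPM (adjusted p = 0.0187). Trem2, a receptor for lipids and debris (chr17:48346401-48354147), was at 5.15, 5.27, 4.57 and 4.32 CPM against 7.40, 9.09, 6.30 and 8.86 CPM. Its rise was 1.64-fold, with no overlap (adjusted p = 0.0348). Cd84, a self-binding receptor of immune cells, rose 1.82-fold from 2.21 to 2.81 CPM to 4.56 to 5.08 CPM (adjusted p = 0.0115), and Cd68, a protein of macrophage lysosomes, 1.70-fold (adjusted p = 0.0392). Gpnmb, a membrane glycoprotein of macrophages laden with lipid, passed with the term (log2 1.11, adjusted p = 0.00249; 0.051 without it).

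Proteins that these cells secrete or use for digestion gave 3 calls. Of 10 tested secreted proteins 1 was called, Lyz2, the lysozyme of myeloid cells, which was at 6.22, 4.37, 4.51 and 5.03 CPM against 11.8, 19.0, 13.1 and 10.7 CPM. L was the highest, and the groups did not overlap (2.68-fold, log2 1.42 ± 0.21 SE, adjusted p = 0.00946). Cst7, an inhibitor of cysteine proteases, was at 0 to 0.718 CPM and 0.925 to 1.44 CPM and did not pass (log2 1.40 ± 0.49 SE, adjusted p = 0.559). Of 16 genes of the lysosome and lipid handling all had a positive change, with a median of 0.23, and 2 were called. Mpeg1, a pore-forming protein of phagocytes (chr19:12460779-12465284), was at 19.7, 15.1, 18.3 and 21.8 CPM against 31.3, 39.4, 32.2 and 29.7 CPM and rose 1.76-fold (log2 0.82 ± 0.11 SE, adjusted p = 0.00402). Ctss, the protease cathepsin S, rose 1.54-fold from 31.0 to 42.4 CPM to 49.2 to 59.9 CPM (adjusted p = 0.00986). Cathepsins D and Z (Ctsd, Ctsz) were among those that passed with the term only, with log2 changes of 0.25 and 0.39. Dock2, an activator of the GTPase Rac in blood-derived cells, and Fyb, an adaptor protein of immune cells, are in none of these lists and rose by 0.69 ± 0.13 and 1.07 ± 0.19 (SE, adjusted p = 0.0251 and 0.0187).

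No gene that marks microglia at rest was called lower in either fit. Of 19 tested, 18 had a positive change, with a median log2 of 0.31. Trem2, which is in both lists, was called, and those that passed with the term included Cx3cr1 (0.38), Csf1r, the receptor that microglia need to survive (0.31), and Ptprc, the leukocyte antigen CD45 (0.87). P2ry12, an ADP receptor of resting microglia, was at 16.1 to 18.3 CPM at 13 months and 16.5 to 21.8 CPM at 26 months (log2 0.12 ± 0.10 SE, adjusted p = 1 when rounded), and Tmem119, a membrane protein that marks them, at 7.06 to 11.1 and 8.27 to 11.6 CPM (0.29 ± 0.14 SE, adjusted p = 0.98). Both were chosen for naming after their values were seen. In libraries of whole tissue, more cells of a type and more RNA of a gene per cell cannot be told apart.

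Transcripts of immune cells from the blood were few in these libraries. Of 13 listed genes of T and NK cells 3 had enough counts to be tested and none was called. Their summed level was 5.09 to 5.75 CPM at 13 months and 4.75 to 7.71 CPM at 26 months, with Cd3e at 0 to 2 counts and Cd8a at 1 to 6 counts per library. Of 12 genes of neutrophils, monocytes and border macrophages 4 were tested, with a summed level of 8.75 to 11 CPM and 11.5 to 16.1 CPM, and F13a1, a transglutaminase of border macrophages, passed with the term only (0.91, adjusted p = 0.0491). Igkc, the light chain of antibodies, had 5 to 17 counts at 13 months and 6 to 25 at 26 months. Red blood cell genes varied more between libraries, with 0 of 6 tested called. Their summed level was 127 to 580 CPM at 13 months, highest in C, and 163 to 478 CPM at 26 months, highest in L and then K. The part of blood cells in the rise of the myeloid genes was not tested.

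Among these myeloid genes Mpeg1 and Lyz2 stayed called whichever of the 8 libraries was left out (largest adjusted p 0.0265 and 0.0392). Ctss lost its call without A or L (adjusted p up to 0.0743), Clec7a without A or L (0.0745), Tlr2 without C or L (0.113), Cd84 without L (0.0743), Fyb without A, B, C, L or M (0.113), Dock2 without A, B, C, L, M or N (0.145), Trem2 without A, B, C, E, L or N (0.216), Itgax without A, B, E, L, M or N (0.191) and Cd68 without A, B, C, E, L, M or N (0.24). With the low 18S term, Cd68 was lost without L and Ctss, Clec7a, Tlr2, Cd84, Fyb, Dock2, Trem2 and Itgax stayed called in every such fit, as did Gpnmb and Ptprc. Csf1r and Ctsz were lost without C, Cx3cr1 without A, B or M, Ctsd without A, L or M, and F13a1 without A, B, C, E, K, L or M. From the 8 control-diet libraries alone, Cd84, Tlr2, Fyb, Dock2, Trem2, Cd68 and Itgax were not called (adjusted p 0.103 to 0.191), and with G and P left out Dock2, Trem2, Cd68 and Itgax were not (0.0569 to 0.0771).

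**Figure D3:**
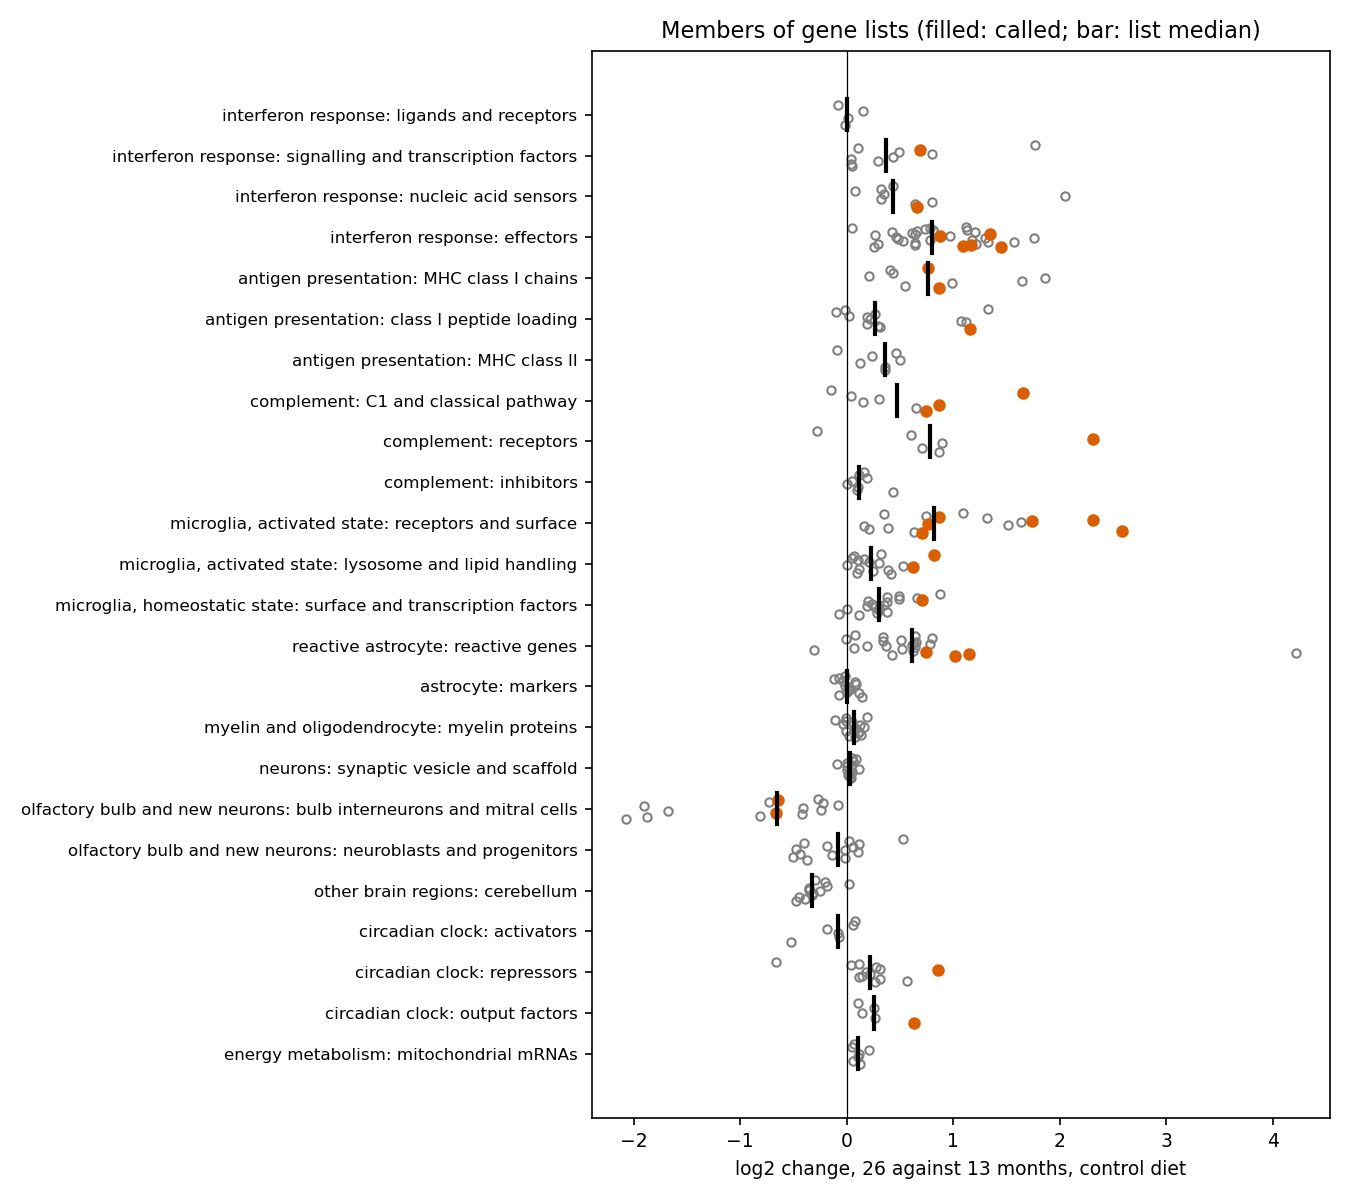
Log2 change from 13 to 26 months on control diet (horizontal) for the tested members of 24 gene lists (rows). Each circle is a gene, filled where it was called, and the bar is the median of the list; the effector genes of the interferon response and the receptors of activated microglia lie to the right of 0, with medians of 0.80 and 0.82, and the genes of the olfactory bulb to the left, with a median of −0.65.

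Among astrocyte genes, 3 of the reactive state rose and no general marker was called. Gfap (chr11:102887336-102900912) was at 127, 140, 99.3 and 123 CPM in A, B, C and E and at 194, 276, 246 and 275 CPM in K, L, M and N. The low 18S libraries C and K were the lowest of their groups, and with the term Gfap had the smallest adjusted p of all genes (log2 1.02 ± 0.06 SE, adjusted p = 1.49e-13, against 1.02 ± 0.13 and 0.00402 without it). Serpina3n, a secreted protease inhibitor (chr12:104406729-104414329), was at 8.50, 9.42, 8.17 and 9.45 CPM against 15, 20.4, 20.1 and 23 CPM. It rose 2.22-fold, with K the lowest of the older libraries (adjusted p = 0.00738). Osmr, the receptor for oncostatin M, rose 1.67-fold from 4.22 to 4.60 CPM to 6.54 to 8.18 CPM (adjusted p = 0.0462). These were the 3 called of 23 tested reactive genes, of which 21 had a positive change (median log2 0.61). The adhesion receptor Cd44 and the calcium-binding protein S100a6 passed with the term. Vim, another intermediate filament gene, did not pass (0.43 ± 0.12 SE, adjusted p = 0.317), but was called with low 18S libraries left out (0.57, adjusted p = 7.16e-05). Lcn2, a secreted iron-siderophore binding protein, had 0, 0, 0 and 3 counts in the younger and 8, 47, 13 and 1 in the older libraries and did not pass (log2 4.22, 2.97 to 7.13 when 1 library was left out, adjusted p = 0.373). Vim and Lcn2 were chosen after their values were seen. None of 14 general astrocyte markers was called (median 0.01). Gfap and Serpina3n stayed called without any 1 library (largest adjusted p 0.033 and 0.0392), and Osmr lost its call without A, B, C, E, L, M or N (up to 0.24) but kept it in each such fit with the term. Osmr was not called from the 8 control-diet libraries alone (adjusted p = 0.0968) or with G and P left out (0.0569). With the term Cd44 was lost without A, C, E, K or L and S100a6 without E or N.

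Of the 4 genes that fell, 2 are markers of the olfactory bulb, the forebrain region that receives smell input and keeps adding interneurons in adult mice. All 14 tested genes of bulb interneurons and projection neurons had a negative change (median log2 −0.65). Of these, 2 were called lower and 6 with the low 18S term, against 0.0225% and 0.214% of all genes tested. In 4 the older libraries all lay below the younger, against 1.19% of all genes tested. The summed level was 528 to 723 CPM at 13 months and 469 to 503 CPM at 26 months. Gng4, a G protein gamma subunit (chr13:13784059-13827897), was at 37.5, 30.2, 46.9 and 42.7 CPM in A, B, C and E and at 22.7, 27.2, 26.4 and 25 CPM in K, L, M and N. Library B was the lowest of the younger ones and still above the older (log2 −0.64 ± 0.10 SE, adjusted p = 0.0115). Pbx3, a homeobox factor of bulb interneurons (chr2:34171457-34373142), was at 23.5, 18.7, 28.6 and 23 CPM against 15.9, 13.7, 15.9 and 14.3 CPM and fell by 0.66 ± 0.11 (log2, SE, adjusted p = 0.0115).

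Among the younger libraries, C held the highest and B the lowest level of Gng4, Pbx3, Sp8, Doc2g, Eomes and Cdhr1. Sp8, a factor for bulb interneurons, was at 5.68, 2.13, 8.95 and 6.23 CPM against 1.91, 1.06, 1.55 and 2.79 CPM, so B overlapped the older libraries, and it passed with the term only (log2 −1.69, adjusted p = 0.0145). Doc2g, which is related to proteins of vesicle release, was at 2.75, 1.35, 8.10 and 3.82 CPM against 1.42, 0.833, 1.06 and 0.984 CPM (−1.87 with the term, adjusted p = 0.000154). Eomes, a factor of mitral and tufted cells, was at 4.01, 3.14, 8.82 and 7.94 CPM against 2.59, 1.29, 0.982 and 0.656 CPM and passed in neither fit (−2.07 ± 0.48 SE, adjusted p = 0.143), nor did the mitral cell cadherin Cdhr1 (−1.88 ± 0.47 SE, adjusted p = 0.246), which ran from 4.71 CPM in B to 30.1 CPM in C among the younger. Both passed in some other edgeR or DESeq2 setting, apart from those without a single library. Their smallest adjusted p there was 0.00252 for Eomes and 0.0182 for Cdhr1. Eomes and Cdhr1 were named after their values were seen. The zinc finger factor Tshz1 and the vesicle protein Synpr fell with the term (−0.42 and −0.27). Without B, 18 genes were called lower, against 4 with all libraries.

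Lgr6 and Rab37 completed the 4 called lower. Lgr6, a receptor for R-spondins, which strengthen Wnt signals (chr1:134983301-135105276), was at 10.5, 6.50, 11.1 and 11.2 CPM against 4.93, 5, 5.56 and 4.76 CPM. Its level at 26 months was 0.512 of that at 13 months (log2 −0.97 ± 0.17 SE, adjusted p = 0.0168). Rab37, a GTPase of secretory vesicles, was at 12.1, 15.4, 16.9 and 12.5 CPM against 10.2, 9.47, 9.49 and 7.87 CPM (−0.61 ± 0.11 SE, adjusted p = 0.0251). With the term the related receptor Lgr5 fell too (−1.04 ± 0.15 SE, adjusted p = 7.51e-05), as did Frmd7, a protein that guides neurite growth, from 1.68 to 7.78 CPM to 0.379 to 1.05 CPM (−2.61 ± 0.43 SE, adjusted p = 0.00629), and the RNA gene Dlx6os1, expressed with the Dlx factors of inhibitory neurons (−0.74 ± 0.13 SE, adjusted p = 0.00357). Frmd7 lost that call without K (adjusted p = 0.0544). Dlx6os1 has more than 1 entry in the deposited counts, and its values here are those of the entry at chr6:6820189-6871592.

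Gng4 stayed called whichever library was left out (largest adjusted p 0.0438), Pbx3 lost its call without L (0.0743), Lgr6 without A, C, E, L or N (0.0745) and Rab37 without B, C, L, M or N (0.108). With the term all 4, and Doc2g, Lgr5 and Dlx6os1, stayed called in every such fit, while Sp8 was lost without A, C, E, K, L or M and Tshz1 and Synpr without C, E, K, L or N. When only the 8 control-diet libraries were fitted, the adjusted p of Gng4, Pbx3, Lgr6 and Rab37 was 0.1, 0.0936, 0.0631 and 0.186, and no gene was called lower. Rab37 was not called with G and P left out either (0.0514).

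Markers of other regions and cell types were read beside the bulb genes. None of 14 neuroblast and progenitor genes was called in either fit (median log2 −0.08), and Dcx, a microtubule protein of migrating neurons named after its values were seen, changed by −0.37 ± 0.23 (SE, adjusted p = 1 when rounded, −0.50 to −0.19 when 1 library was left out). Dcx passed in some other edgeR or DESeq2 setting, where its smallest adjusted p was 0.00563. None of 12 cerebellar genes was called, but 11 of the 12 had a negative change (median −0.32), and their summed level was 787 to 994 CPM at 13 months and 618 to 751 CPM at 26 months, without overlap. The cerebellar factors Zic1 and Zic2 changed by −0.32 ± 0.14 and −0.25 ± 0.12 (SE, not called). The choroid plexus list had a median of −0.38 with 0 of 10 called, the hypothalamus list 0.55 with 0 of 10 called, and the list of cortex and hippocampus 0.20 with 0 of 12 called. Single libraries moved the first of these medians to between −0.66 (without M) and −0.16 (without K), with −0.58 without C, −0.23 without E and −0.21 without B, and the second to 0.26 without L, 0.34 without C and 0.36 without N. The synaptic gene Nrgn, of the cortex list, was called with low 18S libraries left out (0.27, adjusted p = 0.0236; 0.91 with them). The hypothalamic peptides Avp and Pmch changed by 2.50 ± 0.91 and 1.68 ± 0.51 (SE, adjusted p = 0.688 and 0.358), with Avp at 0.588 to 3.48 CPM and 1.17 to 20.9 CPM and its change at 1.601 to 3.076 when 1 library was left out. In the other edgeR and DESeq2 settings the smallest adjusted p was 0.0213 for Pmch and 0.318 for Avp. The share of each region in the tissue taken was not tested, and fewer bulb or cerebellar cells and less RNA per cell cannot be told apart.

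Neuronal and myelin lists held no calls in either fit. No gene was called in either fit among 10 excitatory, 10 inhibitory and 14 synaptic genes, with median log2 changes of 0.02, 0.02 and 0.04, or among 14 immediate early genes, which follow neuronal activity (−0.10). None of 16 myelin protein genes was called (median 0.07), and Mbp, myelin basic protein, was at 1457 to 1727 CPM at 13 months and 1330.1 to 1887 CPM at 26 months. With low 18S libraries left out the tetraspanin Tspan2, of the myelin list, was called (0.28, adjusted p = 0.0171; 0.98 with them). Precursors of oligodendrocytes had a median of 0.06 over 10 genes, with 0 called. In blood vessels 0 of 12 endothelial genes were called (median 0.20). Ptprb, which is not in that list, rose from 36.1 to 43.5 CPM to 47.5 to 58.8 CPM (adjusted p = 0.0404), but its call was lost without A, B, C, E, L, M or N (up to 0.277) and held in each such fit with the term. The adhesion molecule Icam1 was at 0.673 to 1.83 CPM and 1.88 to 4.32 CPM (1.11 ± 0.31 SE, adjusted p = 0.276), and passed with low 18S libraries left out (1.34, adjusted p = 0.0429). Ptprb was not called from the 8 control-diet libraries alone (adjusted p = 0.191) or with G and P left out (0.0911).

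Of 24 tested genes of the circadian clock, 2 rose, and with the low 18S term 6 rose and 2 fell. In the clock the activator ARNTL, also called BMAL1, with its partner CLOCK binds E-boxes and drives its own repressors and output factors such as DBP, and the levels of these transcripts rise and fall over the day. Dbp (chr7:45705088-45710203) was at 27.3, 22.4, 26.1 and 19.7 CPM in A, B, C and E and at 31.3, 37.8, 40.4 and 40.5 CPM in K, L, M and N. The older libraries were all above (1.55-fold, log2 0.64 ± 0.10 SE, adjusted p = 0.00946). Ciart, a repressor of the clock (chr3:95878503-95882251), was at 9.16, 8.41, 8.50 and 6.43 CPM against 14.9, 12.5, 17.2 and 14.7 CPM, a 1.81-fold rise with no overlap (adjusted p = 0.0404). Arntl was at 21.3, 22.7, 30.5 and 27.8 CPM against 19.7, 17.8, 14.8 and 18.7 CPM and fell with the term (log2 −0.52 ± 0.09 SE, adjusted p = 0.00146; 0.0632 without it). With the term, Tef, an output factor related to Dbp (0.26), and the repressors Bhlhe40 (0.32), Bhlhe41 (0.27) and Per3 (0.30) rose. Nfil3, a repressor that competes with DBP for its sites, fell (−0.64). Per2, named after its values were seen, was at 19.7 to 23.6 CPM and 27.4 to 40.6 CPM and passed in neither fit (0.57 ± 0.20 SE, adjusted p = 0.594). The summed level of the 13 repressors was 579 to 655 CPM at 13 months and 689 to 714 CPM at 26 months. The labels give no hour of collection, so age and hour cannot be told apart for these genes. The part of the hour was not tested.

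The E-box, searched as CACGTG, lies in the promoters of 3 of the clock genes called with the term, and these stretches are shown with the E-box in capitals, from RefSeq, build GRCm38.p6, each 5′ to 3′ along its gene.
Ciart, chr3:95882247-95882364, minus strand: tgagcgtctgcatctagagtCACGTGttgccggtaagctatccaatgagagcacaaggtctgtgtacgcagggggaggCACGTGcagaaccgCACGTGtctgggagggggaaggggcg
Bhlhe41, chr6:145865548-145865593, minus strand: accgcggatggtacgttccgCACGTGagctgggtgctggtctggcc
Tef, chr15:81802526-81802571, plus strand: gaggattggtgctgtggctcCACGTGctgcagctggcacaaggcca
The E-box reads the same on both strands. It was found in 4 of the 9 promoters of the 7 matched clock genes called with the term (44.4%), with 2 promoters for Tef, in 21.4% of the 28 promoters of the tested clock genes, in 9.32% of the promoters of tested genes and in 7.15% of all promoters. No CACGTG was found in the windows of Dbp, Arntl, Nfil3 or Per3. Dbp stayed called whichever library was left out (largest adjusted p 0.044) but not when only the 8 control-diet libraries were fitted (0.0838), and Ciart lost its call without any 1 of the 8 (up to 0.161). With the term both kept it in every such fit, as did Arntl, Tef and Bhlhe40, while Bhlhe41 and Per3 were lost without B, C, E, K, L or M and Nfil3 without C, E, L or M.

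Lists on metabolism and stress held few or no calls. Among 7 mitochondrial mRNAs, 18 nuclear genes of oxidative phosphorylation, 16 of glycolysis, 14 of ketone body use and fatty acid oxidation and 15 of cholesterol synthesis 0 were called in either fit, with median log2 changes of 0.11, −0.01, −0.00, −0.02 and 0.11. The mitochondrial list has 13 mRNAs, of which mt-Nd3, mt-Nd4l, mt-Co2, mt-Co3, mt-Atp6 and mt-Atp8 had too few counts for a test. Of the 13, 3 had 0 counts in all 8 libraries, and the cause was not tested. Of 15 genes of the response to oxidative stress 1 passed, with the term only, the peroxidase Prdx6 (0.23, adjusted p = 0.015), and it was lost without A, C, L, M or N. None of 9 tested genes of cell cycle arrest and senescence was called in either fit. Cdkn2a, which encodes p16 and ARF and marks senescent cells, had 0, 0, 0 and 1 counts at 13 months and 0, 1, 1 and 3 at 26 months and was too low to be tested. Cdkn1a, which encodes the cell cycle inhibitor p21, changed by −0.59 (log2, adjusted p = 0.407) and was called lower with low 18S libraries left out (−0.79, adjusted p = 0.0353). Among 11 genes of the inflammasome and cytokine signalling 0 were called (median 0.08), and Il1b had 0 to 6 and Tnf 0 to 4 counts per library, also too few for a test.

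The remaining called genes belong to no list. Pcdhb2, 1 of the clustered protocadherins that give neurons their surface identity, was at 4.97, 3.70, 4.05 and 4.93 CPM in A, B, C and E and at 7.22, 7.35, 7.12 and 6.81 CPM in K, L, M and N (1.61-fold, adjusted p = 0.0334). Of the 21 tested genes of its beta cluster, looked at after Pcdhb2 was seen among the calls, 17 had a positive change (median log2 0.25) and 4 were called with the term, Pcdhb2, Pcdhb9 (0.45), Pcdhb8 (0.69) and Pcdhb14 (0.32). The alpha and gamma clusters had medians of −0.02 over 13 and 0.06 over 20 genes, with 0 called in either fit. Genes of 1 cluster are similar in sequence, so reads may be shared among them. Rnf213, a large ubiquitin ligase, rose 1.49-fold from 24.7 to 27.9 CPM to 30.6 to 45.5 CPM (adjusted p = 0.0424), and Anxa3, a membrane-binding annexin, 1.48-fold from 5.33 to 6.53 CPM to 7.90 to 10.4 CPM (adjusted p = 0.0348). Pcdhb2 lost its call without any 1 of the 8 libraries (adjusted p up to 0.144), Anxa3 without A, B, C, E, L, M or N (0.225) and Rnf213 without A, B, C, E, K, L or N (0.24). With the term Pcdhb2 was lost without C only, Pcdhb9 without C or L, Pcdhb8 without A, B, E, L, M or N, Pcdhb14 without A, B, E, K, L, M or N, Anxa3 without A or L and Rnf213 without A, B, C, E, K or L. None of Pcdhb2, Anxa3 and Rnf213 was called from the 8 control-diet libraries alone (adjusted p = 0.162, 0.206 and 0.186) or with G and P left out (0.0717, 0.0771 and 0.0784).

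The number of calls depended on single libraries. Leaving out 1 of the 8 libraries gave 8 to 42 called genes, with 8 when L was left out, 14 without A, 17 without C, 22 without each of E, M and N, 36 without B and 42 without K. Among the 37 were 8 of those without L, 13 without A, 15 without C and 20 without each of E, M and N. Without B 18 were, and without K 30. Without C or K, only 1 control-diet age held a low 18S library. Without C, 269 genes were lower and 486 higher at an unadjusted p under 0.05 in edgeR. Without K these were 801 and 1025, against 373 and 574 with all libraries. With the low 18S term, leaving out 1 library gave 81 to 154 calls, lowest without L. Of the 37 called genes, 7 stayed called in all 8 of these fits, C4b, Mpeg1, Gfap, Serpina3n, Lyz2, Dbp and Gng4, and with the term 29 did. With C, K and the low 18S libraries of the other diet left out, 108 genes were called, 34 of the 37 among them. From the 8 control-diet libraries alone 12 of the 37 were called, C4b, Mpeg1, Gfap, Serpina3n, Lyz2, Ctss, Lgals3bp, Clec7a, C1qa, Ifitm3, Ifit1 and Ciart.

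**Figure D4:**
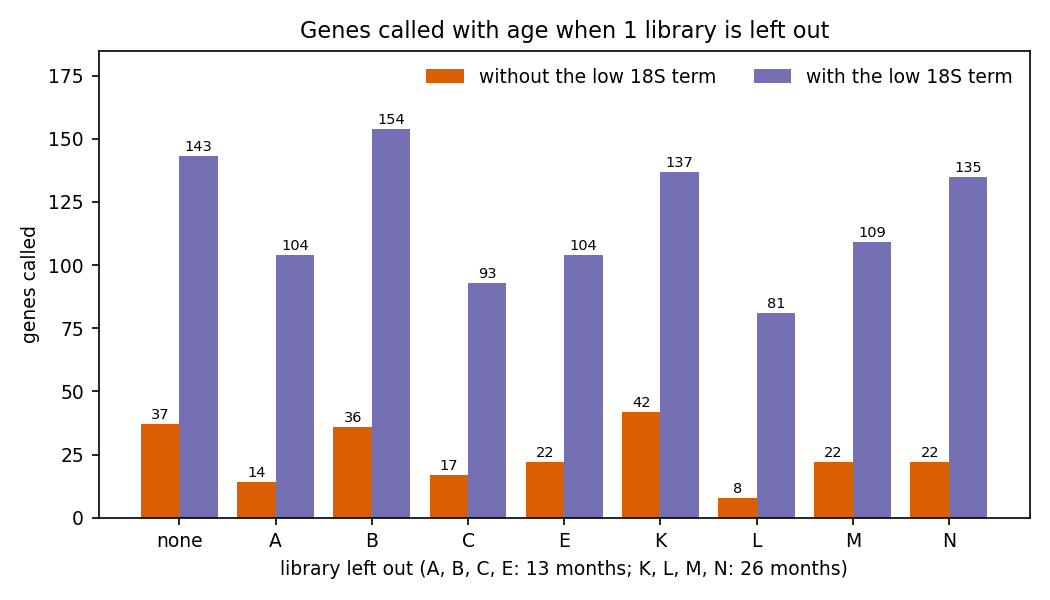
Number of genes called between 26 and 13 months on control diet (vertical, from 0) when 1 of the 8 control-diet libraries was left out (horizontal), without and with a term for low 18S libraries. With all libraries 37 and 143 genes were called; the lowest bars, 8 and 81, are those without library L.

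The change with age on the ketogenic diet was set beside that on the control diet. Age on the ketogenic diet, measured in 8 other libraries, gave 39 called genes (0.22% of 17762). All 37 genes called on the control diet had the same sign there, 17 of them were called, and the median absolute log2 change of the 37 was 0.85 on the control and 0.78 on the ketogenic diet. The 37 were selected by their control-diet change, which can overstate that change, so these medians are not an even comparison of the diets. C4b changed by 1.85 ± 0.12, Gfap by 1.19 ± 0.13 and Lyz2 by 1.97 ± 0.21 on the ketogenic diet (SE, adjusted p = 2.57e-07, 0.000262 and 0.000124). The difference of the age change between the diets was called for 0 of the 17762 genes (0.0%) by edgeR's quasi-likelihood test, with 783 genes (4.41%) at an unadjusted p under 0.05 and 0 called by DESeq2. With the low 18S term 2 genes were called, Mag, a myelin glycoprotein (0.10 on the control and 0.57 on the ketogenic diet, difference −0.48, adjusted p = 0.0326), and mt-Tp, a mitochondrial tRNA gene (0.15 and −0.61, difference 0.77, adjusted p = 0.0326). With low 18S libraries left out 2 were called, mt-Tp (difference 0.88) and mt-Nd6, a subunit of complex I (0.16 and −0.32, difference 0.48, adjusted p = 0.0486 for both), and Mag was not (0.239). With G and P left out 0 were called, also with the term. Among the 37, 3 had an unadjusted p under 0.05 for the difference. That difference uses the same control-diet values by which the 37 were selected. Ifitm3 changed by 1.17 on the control and 0.49 on the ketogenic diet (difference 0.68), Pbx3 by −0.66 and −0.20 (difference −0.46) and Rab37 by −0.61 and −0.04 (difference −0.57), and none passed edgeR's adjustment over all genes. The 32 interferon effectors had a median change of 0.80 on the control and 0.57 on the ketogenic diet, the 16 receptors of activated microglia 0.82 and 0.79, the 14 bulb genes −0.65 and −0.39, and the 16 myelin genes, Mag among them, 0.07 and 0.36. The 7 tested mitochondrial mRNAs, mt-Nd6 among them, had medians of 0.11 and −0.54, and the 6 tested red blood cell genes 0.26 and 1.70. These pairs of medians are descriptions, and their difference was not tested.

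**Figure D5:**
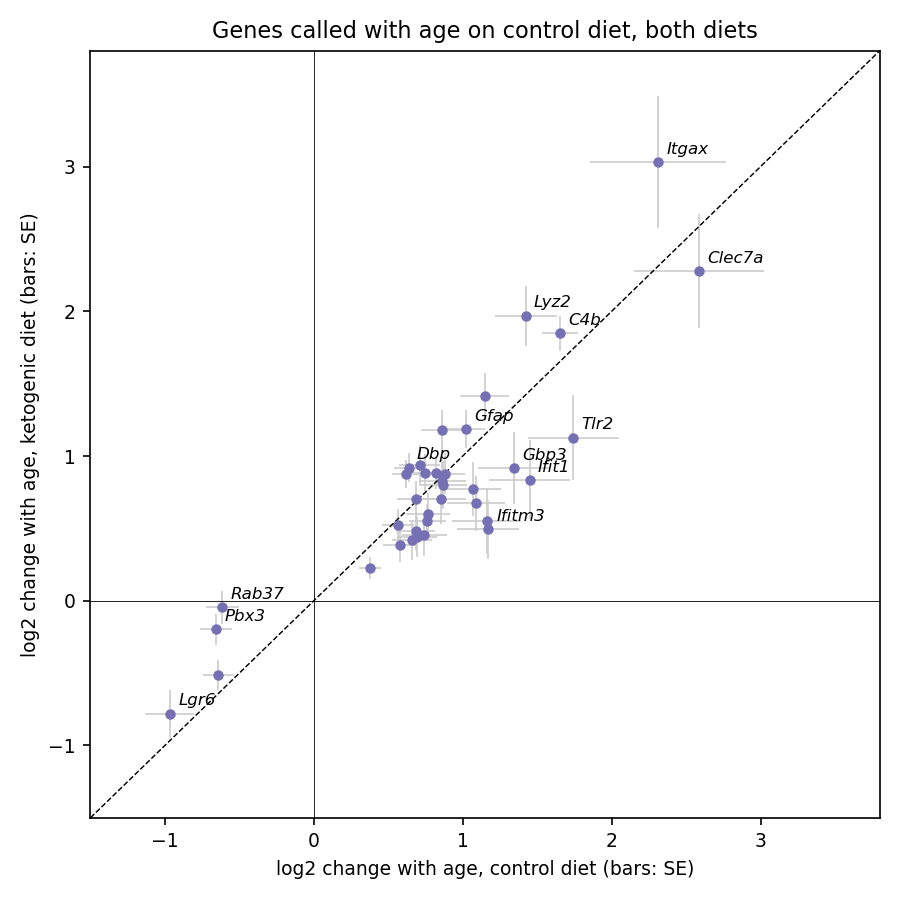
Log2 change from 13 to 26 months on the ketogenic diet (vertical) against that on the control diet (horizontal) for the 37 genes called on the control diet, with bars of ± 1 SE. The dashed line marks equal change; all 37 points lie in the quadrants of equal sign, with Pbx3 and Rab37 close to 0 on the ketogenic diet.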

How the data were processed

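Total RNA of mouse brain was sequenced in 16 libraries made with a directional kit, per the labels' protocols. The authors deposited raw read counts per gene for 48440 genes. The submitters' processing notes name STAR, Trimmomatic, FastQC and build mm10; which program counted the reads, with which annotation and strand, is not given in the sources used here, so reads of overlapping, antisense or near-identical genes (C4b, Serpina3n, Lyz2, Ifit3, Ifitm3, Gbp3, MHC class I, protocadherins) are uncertain. Coordinates are those of the deposited table, counted from 1.

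Counts were tested with edgeR 4.0.16 in R 4.3.3: default expression filter (17762 genes kept), TMM scaling, 1 robust quasi-likelihood fit of 4 group means to all 16 libraries, Benjamini-Hochberg adjustment, calls under 0.05. SE, the standard error, was taken as the size of the log2 change over the square root of F. The low 18S term marks libraries with under 1% of counts on 18S rRNA (C, J, K, R). CPM are counts scaled by TMM library size. The smallest exact p for 4 against 4 is 0.0286. The fit was tested on simulated data with known changes, which held no difference between low 18S and other libraries beyond library size.

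The comparison, the gene lists and the rule for named genes were chosen with earlier results of these data known. Named are all called genes, up to 15 per direction called only with the term, list members called in either fit, up to 3 members with the smallest p of lists without calls, and Gfap, C4b, Serpina3n, Clec7a, Cst7, Arntl, Cdkn2a, Cdkn1a, Igkc and Cd8a; some genes under this rule are not reported here. Replicate libraries differed by more than sampling noise (chi-square per degree of freedom 4.70 to 99.0). Alternatives were DESeq2 1.42.0, its size factors, 2 other filters, the 8 control-diet libraries alone, the term, low 18S libraries left out, no robust estimation, the 18S row left out, each library left out and, added later, libraries G and P left out.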

Additional observations from a re-analysis of the deposited data

Results flagged for a closer look

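In 88 groups of 4 libraries (genes and library measures), 4 held a value whose distance from the other 3 exceeded Dixon's 95% critical value, and chance alone gives about 1 in 20 groups. Lgr6 was at 6.50 CPM in 13-month library B, against 10.5 to 11.2 CPM in A, C and E. H2-K1 was at 33.9 CPM in 26-month library L, against 20.6 to 22.6 CPM in K, M and N. Irf9 was at 12.7 CPM in 26-month library K, against 8.84 to 9.47 CPM in L, M and N. Malat1, a long RNA kept in the nucleus, took 1.11% of counts in 26-month library K, against 0.511 to 0.533% in L, M and N.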

How the results depend on the processing

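No paired analysis was possible because no library letter occurs in more than 1 group. The 37 calls (33 higher, 4 lower) became 81 (58 and 23) with DESeq2's Wald test, 15 (15 and 0) with the 8 control-diet libraries only, where edgeR gave 313 lower genes at an unadjusted p under 0.05, 143 (105 and 38) with the low 18S term, 108 (76 and 32) with low 18S libraries left out, 24 (20 and 4) with G and P left out, 166 (113 and 53) with G and P left out and the term, and 43 (35 and 8) without a filter on low counts. Leaving out 1 library gave 8 to 42 calls, 7 to 35 higher and 1 to 18 lower; with the term it gave 81 to 154, 56 to 108 and 16 to 70. Of the 37 genes, 12 were called from the control-diet libraries only, 21 without G and P and 34 without low 18S libraries, and none changed sign under any of these settings. Of the genes named without a call, Stat2 and Ifnar1 changed sign when 1 library was left out, with log2 changes of −0.10 to 0.30 and −0.056 to 0.013. So did mt-Nd6, whose control-diet change was 0.21 with all libraries and −0.096 without C. Its diet difference ran from 0.25 (without C) to 0.82 (without K). The count of genes whose age change differs between diets was 0, and 2 with the term (Mag and mt-Tp) or with low 18S libraries left out (mt-Nd6 and mt-Tp). DESeq2's size factors, the stricter filter and leaving out the 18S row gave 37, 40 and 37 calls, and 30 were made without robust estimation. Except for the numbers of libraries and genes in a setting, the cause of these differences was not tested. With 4 libraries per group, the precision of genes with few counts, such as Clec7a, Itgax and Lcn2, is limited by counting.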
